A study of Mus musculus with 8 samples.

Results

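The serine and one-carbon enzymes were followed through single cells of 8 large B16F10 melanomas, as 9 genes chosen by symbol from the 31053 features of the tables: *Phgdh*, *Psat1*, *Psph*, *Shmt1*, *Shmt2*, *Mthfd1*, *Mthfd2*, *Mthfd1l* and *Aldh1l2*. All 9 symbols were found, each on a single row. Cells make serine from the glycolytic intermediate 3-phosphoglycerate, and serine hydroxymethyltransferase then splits serine into glycine and a one-carbon unit carried by folate. The folate enzymes pass this unit on to purines, thymidylate and methionine, with parallel sets of enzymes in the cytosol and in mitochondria. ATF4, the transcription factor of the integrated stress response, is a known activator of the serine synthesis genes and of several mitochondrial folate enzymes, and it was the gene deleted in the host here.

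B16F10 is a mouse melanoma line, and its cells kept their own *Atf4*. The tumours grew under the skin of mice aged 12 weeks and reached 300 mm3. Of the hosts, 4 were Atf4wt/wt (2 male, 2 female) and 4 were Atf4D/D (3 male, 1 female). Per the study's methods, both genotypes carried a tamoxifen-inducible Cre at Rosa26 and both received tamoxifen, so that *Atf4* was excised, though not completely, throughout the Atf4D/D host rather than in one cell type. Each tumour gave 1 droplet-based single-cell library, whose transcripts are counted by unique molecular identifiers (UMIs).

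The libraries held 37283598 to 74942137 UMIs over 41925 barcodes in all, and any pair of libraries shared 2 to 14 barcodes. Between replicates, the melanoma-like sums gave a chi-square per gene of 11.5 to 46.0 over 12 pairs, so no library was a copy of another. Cells were clustered without the 9 genes and without the other serine and one-carbon genes listed here. Of the cells kept, 23731 were melanoma-like, 728 were like cancer-associated fibroblasts (CAF-like, led by *Col3a1*, *Col1a1* and *Col1a2*) and 248 were like tumour-associated macrophages (TAM-like, led by *C1qa*, *C1qb* and *Lyz2*). In each of the 9 melanoma-like clusters, 8 or 9 of the 10 melanoma markers were found in at least 50% of cells. A further 3345 cells stayed unnamed, most of them low in UMIs. UMIs were added up over the cells of a class in each tumour, which made the tumour the replicate, and a level below is a plain CPM, the gene's UMIs over all UMIs of that sum in the usual scaling. Fold changes come from edgeR with TMM normalization, and a call means a Benjamini-Hochberg adjusted p under 0.05.

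The members were ordered by their place in the pathway, with positions from GENCODE vM21 (GRCm38). *Phgdh* (ENSMUSG00000053398, chr3:98313170-98339990, minus strand) encodes phosphoglycerate dehydrogenase, the entry step of serine synthesis. *Psat1* (ENSMUSG00000024640, chr19:15904678-15947337, minus strand) encodes the aminotransferase that follows, and *Psph* (ENSMUSG00000029446, chr5:129765558-129787449, minus strand) the phosphatase that releases serine. *Shmt1* (ENSMUSG00000020534, chr11:60788104-60811718, minus strand) encodes the cytosolic serine hydroxymethyltransferase. *Shmt2* (ENSMUSG00000025403, chr10:127517123-127522444, minus strand) encodes the mitochondrial one. *Mthfd1* (ENSMUSG00000021048, chr12:76255298-76319803, plus strand) encodes the trifunctional folate enzyme of the cytosol. *Mthfd2* (ENSMUSG00000005667, chr6:83305691-83325908, minus strand) and *Mthfd1l* (ENSMUSG00000040675, chr10:3973118-4167081, plus strand) encode the mitochondrial dehydrogenase/cyclohydrolase and the formate-releasing synthetase. *Aldh1l2* (ENSMUSG00000020256, chr10:83487450-83534140, minus strand) encodes the mitochondrial 10-formyltetrahydrofolate dehydrogenase.

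Several members moved together with stress, hypoxia or S phase genes, as the values show, and their promoters were therefore searched for an element of each kind. RefSeq windows of 300 bases (GRCm38.p6, 250 before and 50 after an annotated start) were at hand for 8 members in 9 windows, without *Aldh1l2*. The C/EBP-ATF element TGATGNAA, read on both strands, was in 0 of the 9 windows and in 3.97% of all 32851 windows. A loose form of the E2F element, TTTNNCGC with any base at N, was in 2 of the 9 windows and in 5.17% of all. The matched letters were TTTACCGC in *Psph* and TTTCTCGC in *Shmt2*. The core of the hypoxia element, ACGTG, which is also part of the E box CACGTG, was in 3 of the 9 windows (*Mthfd1l*, *Psat1* and *Psph*) and in 19.6% of all. *Mthfd1l* held it at 2 places, 246 and 39 bases before the start. These matches are letters in a window and not shown to be binding sites. The *Mthfd1l* stretches are shown since this gene was higher with the hypoxia list in every tumour, and the *Psph* one since its call with that list did not last, with the motif in capitals and each read 5′ to 3′ on the strand of the gene.
Mthfd1l, chr10:3972825-3972844: ctccCACGTaataaacactt
Mthfd1l, chr10:3973025-3973051: accaaaagcttCACGTccgctggcccc
Psph, chr5:129787391-129787417: ggccgagaacaACGTGctctctgcggg

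In melanoma-like cells, every member was measured well, with 4170 UMIs (*Shmt1*) to 99734 UMIs (*Phgdh*) over the 8 tumours. The serine synthesis genes come first. *Phgdh* was at 347, 400, 457 and 543 CPM in Atf4wt/wt replicates 1 to 4 and at 317, 427, 382 and 299 CPM in Atf4D/D replicates 1 to 4. *Psph* was at 118, 156, 196 and 268 CPM in Atf4wt/wt and at 109, 176, 171 and 101 CPM in Atf4D/D hosts. *Psat1* was at 95.2, 97.7, 120 and 140 CPM in Atf4wt/wt and at 91.1, 131, 104 and 95.9 CPM in Atf4D/D hosts. For all 3 genes the ranges of the genotypes overlapped, and Atf4wt/wt replicate 4 held the highest level. Among the mitochondrial folate genes, *Mthfd2* was at 268 ± 38.0 CPM (SD, n = 4) in Atf4wt/wt and 268 ± 43.8 (n = 4) in Atf4D/D hosts. *Shmt2* was at 111 ± 25.9 and 111 ± 14.5 CPM, *Mthfd1l* at 92.8 ± 6.42 and 99.6 ± 9.21 CPM, and *Aldh1l2* at 65.9 ± 14.7 and 52.9 ± 19.9 CPM. Of the cytosolic genes, *Shmt1* was at 14.1 to 17.4 CPM in Atf4wt/wt and 14.3 to 18.7 CPM in Atf4D/D hosts, and *Mthfd1* at 35.3 ± 3.60 and 36.6 ± 1.94 CPM.

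**Figure D1:**
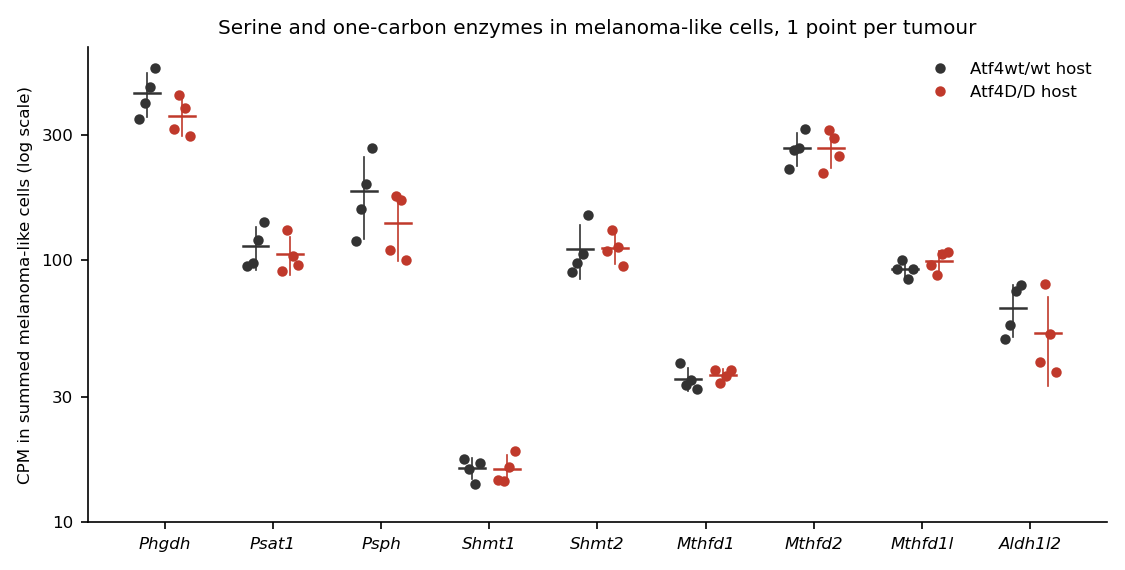
CPM (log scale) of the 9 genes in summed melanoma-like cells, 1 point per tumour, with the mean as a horizontal line and the SD as a vertical line for 4 Atf4wt/wt (black) and 4 Atf4D/D (red) hosts. The genotypes overlap for every gene, and *Psph* and *Aldh1l2* spread widely between tumours of one genotype.

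The first comparison asked whether the host's loss of *Atf4* went with a different level of these enzymes in the melanoma cells. Melanoma-like cells held *Atf4* itself at 262 to 410 CPM in Atf4wt/wt and at 311 to 442 CPM in Atf4D/D hosts, with a log2 fold change of 0.03 ± 0.14 (SE). None of the 9 members passed the test, where 4 of 12554 genes did (0.0319%). At an unadjusted p under 0.05, 1421 genes passed, and of the members *Phgdh* did. The log2 fold change of *Phgdh* was -0.34 ± 0.14 (95% interval -0.64 to -0.03, adjusted p = 0.409), that of *Psph* -0.45 ± 0.24 (-0.97 to 0.07) and that of *Aldh1l2* -0.36 ± 0.22 (-0.85 to 0.13). The intervals of *Mthfd1* (-0.16 to 0.18), *Mthfd1l* (-0.11 to 0.23), *Shmt1* (-0.26 to 0.16) and *Mthfd2* (-0.30 to 0.22) were narrower. Of the 49 other serine and one-carbon genes, 39 could be tested and 0 passed. These sums mix melanoma clusters, and the share of the cluster highest in serine synthesis genes, given below, differed between tumours.

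CAF-like cells showed all 9 enzymes below the melanoma-like cells of the same tumours. The difference was largest for *Phgdh*, 4.36-fold (log2 fold change -2.12 ± 0.13 SE), and *Psph*, 3.31-fold (-1.73 ± 0.15), whereas *Psat1* between them in the pathway was 2.02-fold lower (-1.01 ± 0.15). *Mthfd2* was 3.17-fold lower (-1.67 ± 0.14), and the smallest differences were those of *Mthfd1* (1.82-fold, -0.86 ± 0.18) and *Aldh1l2* (1.64-fold, -0.72 ± 0.17). The adjusted p-values ran from 1.33e-16 (*Phgdh*) to 0.000671 (*Shmt1*). Among all 13329 genes, 29.8% were lower in CAF-like cells, and the median of all genes was -0.13 on the log2 scale against -1.01 for the members.

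CAF-like sums also held melanoma RNA, judged by melanoma markers at 7.17% to 31.6% of their level in the melanoma-like cells of the same tumour. Over the 8 tumours, 318 *Phgdh* UMIs were counted in CAF-like cells, where the melanoma RNA alone would bring 295. For *Psph* the numbers were 156 and 112, for *Mthfd2* 296 and 209, for *Psat1* 198 and 85.5, for *Shmt2* 198 and 88.1, for *Mthfd1l* 186 and 81.4, and for *Aldh1l2* 117 and 42.2. The count was thus close to that from melanoma RNA for *Phgdh*, and over 2 times it for *Psat1*, *Shmt2*, *Mthfd1l* and *Aldh1l2*. These counts pool both genotypes. Atf4D/D replicate 4 gave 1476443 CAF-like UMIs, against 40821 to 720017 in each other tumour. Levels by genotype are given below. With cells above 0.2% of melanoma-marker UMIs left out, the melanoma RNA in the CAF-like sums of 7 tumours fell to 3.32% to 5.47%. In these sums *Phgdh* was 10.9-fold lower than in melanoma-like cells (-3.45 ± 0.14), *Psph* 6.07-fold, *Mthfd2* 5.46-fold and *Shmt1* 5.04-fold. *Aldh1l2* was 1.91-fold and *Mthfd1* 1.86-fold lower. All 9 stayed called as lower, beside 31.8% of 13276 genes.

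**Figure D2:**
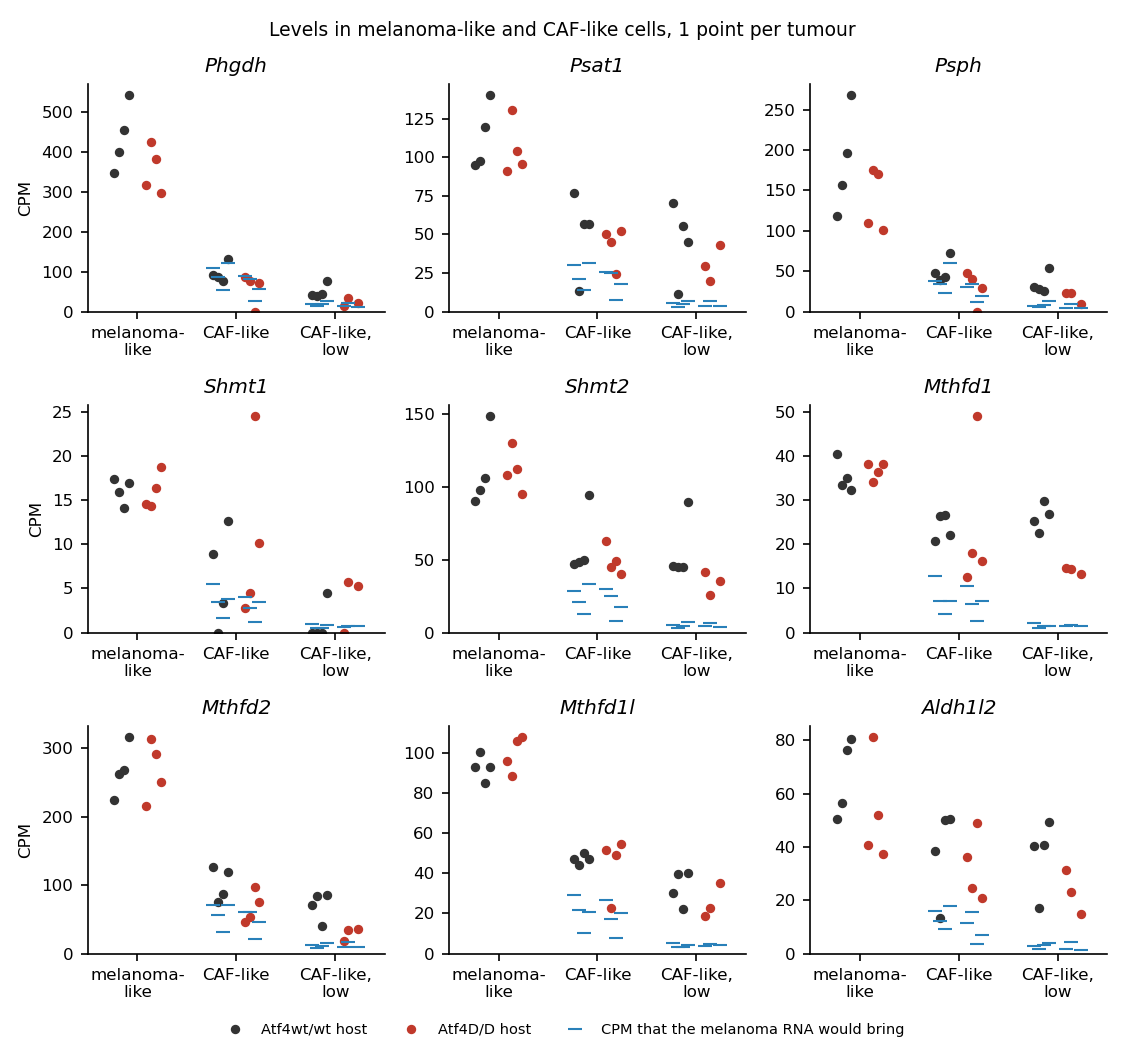
CPM of each gene per tumour in melanoma-like cells, in CAF-like cells and in CAF-like cells low in melanoma RNA (at most 0.2% melanoma-marker UMIs, sums of at least 10 cells), black for Atf4wt/wt and red for Atf4D/D hosts. Blue bars give the CPM that melanoma RNA in the sum would bring, which lies near the *Phgdh* points in CAF-like cells and well below those of *Psat1*, *Shmt2* and *Mthfd1* in the low cells.

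The deletion was checked in CAF-like cells, which belong to the host. *Atf4* was at 278, 299, 323 and 290 CPM in Atf4wt/wt replicates 1 to 4 and at 151, 104, 171 and 90.1 CPM in Atf4D/D replicates 1 to 4, without overlap. The log2 fold change was -1.30 ± 0.20 (SE, adjusted p = 0.0375). The call was lost without any one of 6 tumours (Atf4wt/wt replicates 1 to 4, Atf4D/D replicates 2 and 4), with adjusted p-values of 0.0684 to 0.409 and changes of -1.34 to -1.12. It was also lost with sex as a covariate (adjusted p = 0.0991) and with the replicate block (adjusted p = 0.0595). In CAF-like cells low in melanoma RNA the levels were 302, 271, 283 and 264 CPM against 96.0, 83.2 and 45.7 CPM (Atf4D/D replicates 1, 2 and 4). There the change was -1.91 ± 0.25 (adjusted p = 0.0194). Atf4D/D replicate 3 had 10 CAF-like cells, against 51 to 240 in the other tumours.

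None of the 7 members that could be tested in CAF-like cells passed between the genotypes, where 2 of 4637 genes did (0.0431%) and 305 had an unadjusted p under 0.05. *Shmt1* and *Mthfd1* were under the expression filter. The levels below include melanoma RNA, which was not subtracted. Cells low in it were 53 of 71, 44 of 51, 57 of 64 and 57 of 70 CAF-like cells in Atf4wt/wt replicates 1 to 4. In Atf4D/D replicates 1 to 4 they were 105 of 125, 86 of 97, 9 of 10 and 208 of 240. Whether the genotypes differed in melanoma RNA was not tested. The member with the largest difference was *Mthfd2*, at 127, 74.7, 86.7 and 120 CPM in Atf4wt/wt and 45.8, 54.0, 98.0 and 75.2 CPM in Atf4D/D hosts. The ranges overlapped through Atf4D/D replicates 3 and 4, and the log2 fold change was -0.71 ± 0.24 (95% interval -1.22 to -0.20, adjusted p = 0.623). *Phgdh* changed by -0.35 ± 0.27 and *Aldh1l2* by -0.51 ± 0.35 on the log2 scale, and neither passed. *Psph* changed by -0.46 ± 0.31, *Shmt2* by -0.29 ± 0.28, *Psat1* by -0.09 ± 0.32 and *Mthfd1l* by 0.003 ± 0.26.

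In CAF-like cells low in melanoma RNA the point estimates of *Mthfd2*, *Phgdh*, *Shmt2* and *Aldh1l2* lay further from 0. *Psph*, *Psat1* and *Mthfd1l* are not described for these cells. Atf4D/D replicate 3, with 9 such cells, gave no sum. Over all CAF-like cells, its *Mthfd2* level lay within the Atf4wt/wt range. Still no member passed, where 5 of 4154 genes did and 406 had an unadjusted p under 0.05. How many of all genes had ranges without overlap was not counted. *Mthfd2* was at 70.5, 84.7, 40.9 and 85.2 CPM in Atf4wt/wt and at 18.8, 34.4 and 36.0 CPM in Atf4D/D hosts, without overlap, with a log2 fold change of -1.10 ± 0.32 (-1.79 to -0.42, adjusted p = 0.229). *Phgdh* was at 40.3, 39.5, 44.6 and 76.2 CPM against 14.6, 34.4 and 21.1 CPM, also without overlap (-1.14 ± 0.36, -1.91 to -0.37, adjusted p = 0.274). *Shmt2* changed by -0.64 ± 0.31 and *Aldh1l2* by -0.78 ± 0.41. *Mthfd1*, too low to be tested, was at 25.2, 22.6, 29.7 and 26.9 CPM against 14.6, 14.3 and 13.2 CPM, from 23 and 27 UMIs in all. These sums rest on 44 to 57 cells per Atf4wt/wt tumour and on 86 to 208 per Atf4D/D tumour. They still held some melanoma RNA, which was not subtracted.

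Whether the genotypes differed more in CAF-like than in melanoma-like cells was tested directly as an interaction, with each tumour as its own block. *Atf4* passed this test, with a difference of the log2 fold changes of -1.29 ± 0.23 (adjusted p = 3.56e-05), though not without the tumour block (adjusted p = 0.30). Of the 9 members 0 passed, beside 60 of 13329 genes (0.45%), and 786 genes had an unadjusted p under 0.05. The difference for *Mthfd2* was -0.60 ± 0.26 (95% interval -1.11 to -0.09, adjusted p = 0.693), and -0.93 ± 0.30 (adjusted p = 0.122) in cells low in melanoma RNA. For *Phgdh* the interval was -0.44 to 0.59 with all CAF-like cells.

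TAM-like cells held less of 8 members than melanoma-like cells. Their sums were small, 34533 to 305079 UMIs in 7 tumours with at least 10 such cells, and melanoma RNA was at 4.75% to 8.63%. *Phgdh* was counted 13 times where melanoma RNA would bring 18.9, and it was 24.4-fold lower (log2 fold change -4.61 ± 0.28). *Aldh1l2* was counted 3 times where melanoma RNA would bring 3.21, a pooled 4.32 CPM with an exact Poisson 95% interval of 0.89 to 12.6. *Psat1* was counted 31 times against 5.50, *Mthfd2* 26 against 13.2 and *Shmt2* 20 against 5.49. *Psat1* was 2.78-fold lower (-1.47 ± 0.28) and *Mthfd1* 2.75-fold lower (-1.46 ± 0.44), though the latter did not pass with cells of at most 5% mitochondrial counts (adjusted p = 0.0823). Atf4D/D replicate 2 held 117 of the 248 TAM-like cells and 9 of the 13 *Phgdh* UMIs. *Shmt1* did not pass, at -0.20 ± 0.49 (-1.16 to 0.75), with 10 UMIs counted against 0.694 from melanoma RNA. Among all 12373 genes 27.1% were lower in TAM-like cells, and their median was -0.50 on the log2 scale against -2.22 for the members. With DESeq2 size factors the median of all genes was -0.36. Between the genotypes none of the members had enough counts in TAM-like cells to be tested, in a fit that called 1 of 1093 genes (0.0915%).

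Within the melanoma, the members did not move as one block. The 9 clusters were described by their leading genes. Cluster 1, led by *Fgf21*, *Grb14* and the stress gene *Nupr1*, held the highest level of all 3 serine synthesis genes, of *Mthfd2* and of *Aldh1l2*. *Phgdh* was at 570 ± 49.4 CPM there (SD, n = 8 tumours), *Psph* at 316 ± 50.6, *Mthfd2* at 339 ± 36.2 and *Aldh1l2* at 158 ± 11.6. Each was above the tumour's own level in 8 of 8 tumours. Cluster 1 made up 11.7%, 14.5%, 23.2% and 24.6% of melanoma-like cells in Atf4wt/wt replicates 1 to 4. In Atf4D/D replicates 1 to 4 its shares were 15.4%, 17.1%, 13.1% and 11.2%. The part of these shares in the genotype differences of the members was not tested. Cluster 2, led by *Espn* and *Selenbp1* and holding *Car9* and *Bnip3* of the hypoxia response, held the lowest *Phgdh* (208 ± 36.4 CPM) and *Psph* (89.9 ± 18.3) but the highest *Mthfd1l* (141 ± 9.89). Cluster 0, led by the replication genes *Uhrf1*, *Cdc6* and *Rrm2*, held the highest *Shmt1* (32.7 ± 2.44 CPM) and *Mthfd1* (57.4 ± 2.87). *Shmt1* was down to 3.66 ± 0.851 CPM in cluster 1 and 3.03 ± 1.04 in cluster 2.

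**Figure D3:**
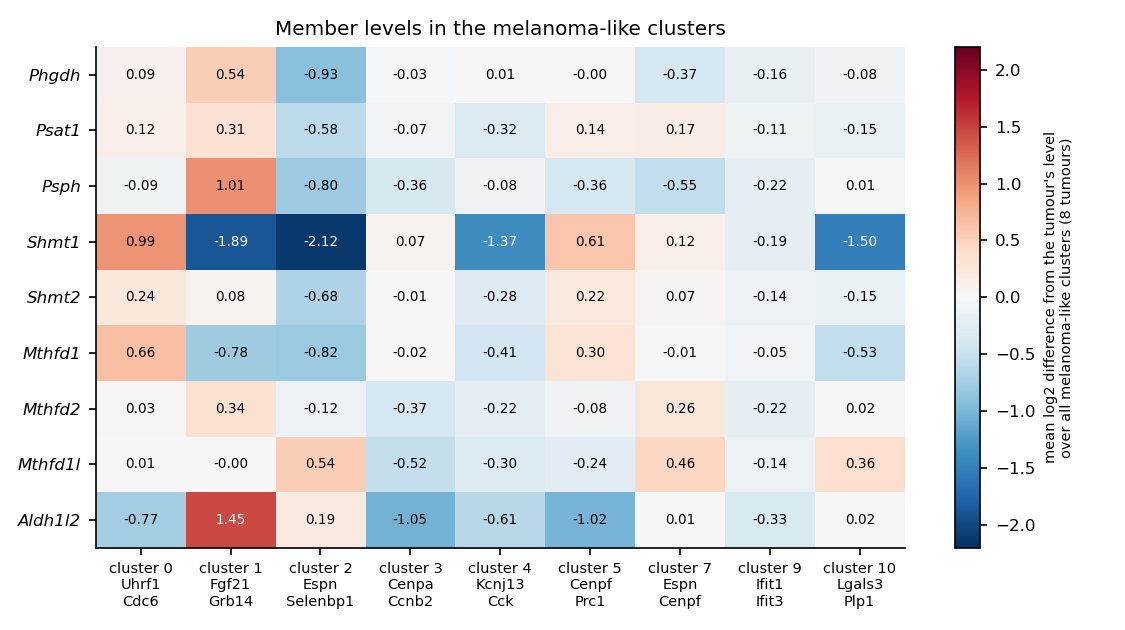
Mean log2 difference of each gene's level in a melanoma-like cluster from the tumour's level over all melanoma-like clusters, averaged over 8 tumours, with the leading genes of each cluster under its number. Cluster 1 is highest for *Psph* (1.01) and *Aldh1l2* (1.45), cluster 0 for *Shmt1* (0.99) and *Mthfd1* (0.66), and cluster 2 for *Mthfd1l* (0.54).

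The genes most like each member were ranked by Pearson's r over 72 sums (cluster by tumour, centred per tumour) among 5847 genes of at least 20 CPM. These points share libraries and cell cycle stage, so that r is a description. *Shmt1* went with *Pclaf* (0.956), *Pold2* (0.955) and *Rrm2* (0.953), and *Mthfd1* with *Ipo5* (0.893) and *Rrm2* (0.891). *Aldh1l2* went with *Trib3* (0.935), *Sars* (0.927) and *Eif4ebp1* (0.918), and *Mthfd2* with *Slc7a1* (0.849), *Atf4* (0.815) and *Trib3* (0.808). *Psph* went with *Krtcap2* (0.955), *Gars* (0.932) and *Cyb5r1* (0.918), and *Phgdh* with *Bcat1* (0.926), *Arpc5l* (0.919) and *Dnajb11* (0.895). *Psat1* and *Shmt2* were among each other's nearest (0.83), with *Rpa3* (0.770) and *Taf15* (0.763) next to *Psat1* and *Eif1ad* (0.839) and *Rpa3* (0.821) next to *Shmt2*. *Mthfd1l* went with *Vcl* (0.868), *Ate1* (0.847) and *Mxi1* (0.845). Between members r ran from -0.62 (*Aldh1l2* with *Shmt1*) to 0.87 (*Phgdh* with *Psph*, and *Shmt1* with *Mthfd1*).

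The members were next set along gene lists, with the tumour as the replicate. The cells are those of the clusters above, so the p-values are no independent test of the cluster patterns. Melanoma-like cells of at least 5000 UMIs (22257 cells) were ranked within each tumour by their share of UMIs in a gene list that held no member. The highest 20% of cells were set against the lowest 20%, 4450 cells on each side, with both summed per tumour. Such cells are ends of a range and not cell types, and 13357 cells lay between them.

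Along the integrated stress response list (20 genes), all 9 members passed the test, 7 of them higher and 2 lower in the stress-high cells. Among all 11269 genes 32.8% were higher and 33% lower. The mitochondrial *Aldh1l2* was at 117 to 162 CPM (median 141) in stress-high and at 6.36 to 26.8 CPM (median 9.62) in stress-low cells over 8 tumours. Its log2 fold change of 3.56 ± 0.14 (SE, 11.8-fold) was the largest of the members. *Psph* was at 249 to 430 CPM (median 314) against 41.8 to 94.4 CPM (median 54.4), 5.76-fold higher (2.53 ± 0.06). *Mthfd2* was at 358 to 462 CPM (median 398) against 109 to 167 CPM (median 128), 3.21-fold higher (1.68 ± 0.07). *Phgdh* was 2.39-fold higher (1.26 ± 0.05), *Psat1* 2.17-fold (1.12 ± 0.04), *Shmt2* 1.81-fold (0.85 ± 0.05) and *Mthfd1l* 1.28-fold (0.35 ± 0.06). These were higher in stress-high cells in 8 of 8 tumours, or in 7 of 8 for *Mthfd1l*. *Atf4* itself, which is in none of the 3 lists, was at 481 to 787 CPM against 174 to 231 CPM (1.72 ± 0.04). The cytosolic pair went the other way in 8 of 8 tumours. *Shmt1* was 2.37-fold lower (-1.25 ± 0.09) and *Mthfd1* 1.75-fold lower (-0.80 ± 0.06). The adjusted p-values of the 9 ran from 2.6e-16 (*Psph*) to 4.26e-05 (*Mthfd1l*).

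The stress-high cells also differed in other ways. They held a median of 0.0550% of UMIs in the S phase list against 0.209% in stress-low cells, and 0.209% against 0.102% in the hypoxia list. Their median depth was 9642 against 11618 UMIs, and cluster 1 made up 51.8% of them against 0.157%. All 35 S phase genes were lower in stress-high cells and 14 of 15 hypoxia genes higher.

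Along the hypoxia list (15 genes), 4 members were higher, 4 lower and *Psat1* did not pass (0.06 ± 0.07, -0.08 to 0.19). Among all 11258 genes 33.5% were higher and 31.5% lower. *Mthfd1l* was at 123 to 160 CPM (median 144) in hypoxia-high and at 65.8 to 79.6 CPM (median 73.3) in hypoxia-low cells, without overlap, a 2.11-fold difference (1.08 ± 0.05, adjusted p = 1.07e-10). *Aldh1l2* was at 84.6 to 122 CPM (median 104) against 11.3 to 56.9 CPM (median 27.8), 3.92-fold higher (1.97 ± 0.17). *Mthfd2* (0.50 ± 0.10) was higher in 7 of 8 tumours. *Psph* (0.33 ± 0.10) was too, but lost its call with cells of at most 5% mitochondrial counts, with thinned cells and without the tumour block. Lower in hypoxia-high cells, in 8 of 8 tumours, were *Shmt1* (-1.47 ± 0.12), *Mthfd1* (-0.73 ± 0.08), *Phgdh* (-0.32 ± 0.06) and *Shmt2* (-0.24 ± 0.06). *Phgdh*, at the head of the pathway, was at 227 to 462 CPM (median 283) in hypoxia-high and at 299 to 531 CPM (median 400) in hypoxia-low cells. The hypoxia-high cells held 0.0541% of UMIs in the S phase list against 0.194%, and 0.181% against 0.0882% in the stress list. Cluster 2 made up 49.0% of the hypoxia-high cells.

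Along the S phase list (35 genes), 4 members were higher, 3 lower and 2 did not pass, with 34.9% of all 11311 genes higher and 37.6% lower. *Shmt1* was at 30.5 to 39.7 CPM (median 32.9) in S-high and at 1.24 to 4.87 CPM (median 1.88) in S-low cells, a 13.2-fold difference (3.73 ± 0.12, adjusted p = 5.94e-22). *Mthfd1* was at 52.5 to 64.9 CPM (median 58.4) against 16.2 to 22.4 CPM (median 19.8), 2.93-fold higher (1.55 ± 0.06). Both were higher in 8 of 8 tumours, and their ranges were far apart. *Shmt2* (0.53 ± 0.05) and *Psat1* (0.21 ± 0.05) were higher by less. *Aldh1l2* was 3.44-fold lower (-1.78 ± 0.09), *Psph* 1.62-fold lower (-0.69 ± 0.05) and *Mthfd1l* 1.12-fold lower (-0.17 ± 0.05), the last with 3 of 8 tumours higher and no call at the 5% mitochondrial limit. *Phgdh* (-0.08 ± 0.04, adjusted p = 0.0536) and *Mthfd2* (-0.06 ± 0.05) did not pass. S-high cells were deeper, with a median of 12793 UMIs against 8791. With every cell thinned to 5000 UMIs, *Shmt1* and *Mthfd1* stayed called as higher. Cluster 0 made up 78.4% of the S-high cells.

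**Figure D4:**
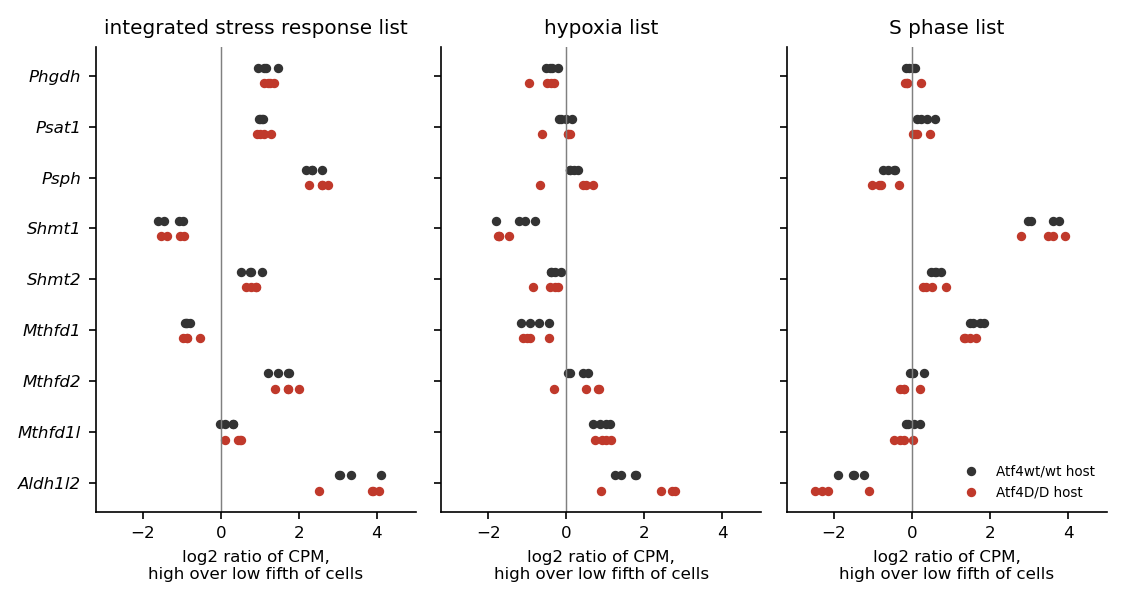
Log2 ratio (pseudocount 1 CPM) of each gene's CPM in the highest over the lowest 20% of melanoma-like cells by the integrated stress response, hypoxia and S phase lists, 1 point per tumour, black for Atf4wt/wt and red for Atf4D/D hosts. *Aldh1l2* and *Psph* lie right of 0 for stress in 8 tumours, *Mthfd1l* for hypoxia, and *Shmt1* and *Mthfd1* for S phase.

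As the lists overlapped in the cells they picked, each was set again within the 50% of cells lowest in another list, an alternative chosen after the data were seen. Among cells low in the S phase list (2225 on each side), *Aldh1l2* (2.77 ± 0.11), *Psph* (2.41 ± 0.10), *Mthfd2* (1.65 ± 0.09), *Phgdh* (1.43 ± 0.09), *Psat1* (1.24 ± 0.08) and *Shmt2* (1.09 ± 0.09) stayed higher with stress. The medians of the S phase list were then 0.0426% and 0.0580%. *Shmt1* stayed lower (-1.04 ± 0.21) and *Mthfd1* was at -0.25 ± 0.09 (adjusted p = 0.0242). Along the hypoxia list among the same cells, *Mthfd1l* (1.25 ± 0.06) and *Aldh1l2* (1.31 ± 0.09) stayed higher, *Phgdh* was lower by more (-0.65 ± 0.05) and *Mthfd1* did not pass (-0.13 ± 0.12). *Psph* turned to lower (-0.20 ± 0.07, adjusted p = 0.0284). Among cells low in the stress list, *Mthfd1l* was at 1.01 ± 0.06 and *Aldh1l2* at 1.88 ± 0.13 along hypoxia. The hypoxia-high cells there held a median of 0.0694% in the S phase list, against 0.229% in the hypoxia-low cells. In the stress list the medians were 0.0841% and 0.0633%. The part of S phase in these hypoxia differences was not tested. Along S phase among cells low in the stress list, *Shmt1* (3.27 ± 0.13) and *Mthfd1* (1.5 ± 0.07) stayed higher and *Aldh1l2* (-1.34 ± 0.11) lower. *Phgdh* (0.42 ± 0.05) and *Mthfd2* (0.31 ± 0.04), which did not pass in all cells, were higher with S phase there. The S-high cells of this subset held a median of 0.0918% of UMIs in the hypoxia list, against 0.330% in its S-low cells. The part of hypoxia in these differences was not tested.

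**Figure D5:**
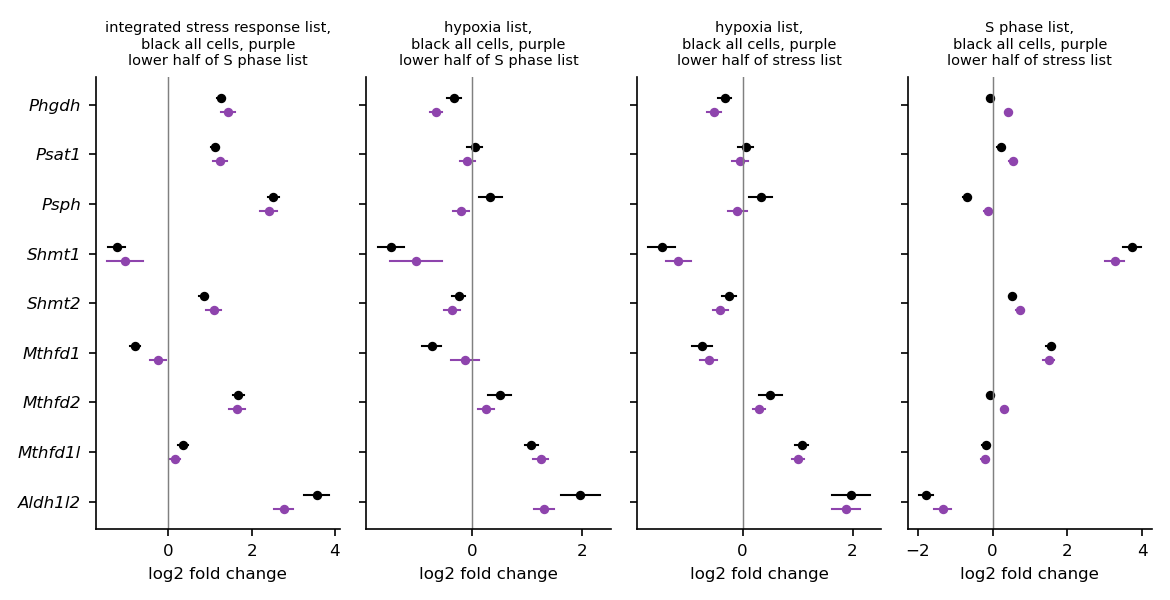
Fitted log2 fold change with its 95% interval, high against low in a list, over all melanoma-like cells (black) and over the 50% of cells lowest in a second list (purple), n = 8 tumours. *Mthfd1l* keeps its place along hypoxia, *Shmt1* along S phase and *Psph* along stress, whereas *Psph* along hypoxia and *Phgdh* along S phase change side.

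The other serine and one-carbon genes were 49 in 6 lists. Along stress, 14 of 39 tested were higher (35.9%, all genes 32.8%) and 17 lower (43.6%, all genes 33%). Higher were 4 of 7 serine and glycine carriers, with the glycine transporter *Slc6a9* (3.36 ± 0.15) and the neutral amino acid transporters *Slc1a4* (3.03 ± 0.12) and *Slc1a5* (1.51 ± 0.06). *Cth* of transsulfuration, which makes cysteine with sulphur from methionine and carbon from serine, was higher (3.47 ± 0.06), as was *Cbs* (2.23 ± 0.26). All 6 purine synthesis genes were lower, *Ppat* by the most (-1.01 ± 0.07), and so was *Tyms* of thymidylate synthesis (-1.13 ± 0.05). Along hypoxia 11 of 39 were higher (28.2%, all genes 33.5%) and 21 lower (53.8%, all genes 31.5%), again with 6 of 6 purine synthesis genes lower (*Ppat* -1.07 ± 0.11). Along S phase 20 of 39 were higher (51.3%, all genes 34.9%) and 17 lower (43.6%, all genes 37.6%). Higher were 6 of 6 purine synthesis genes (*Ppat* 1.59 ± 0.06) and *Tyms* (2.78 ± 0.05), and lower were *Serinc3* (-0.99 ± 0.06) and *Cth* (-1.28 ± 0.07), the latter at 0.26 ± 0.14 without a call among cells low in the stress list.

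Against melanoma-like cells, CAF-like cells were higher in 6 of 42 of these genes (14.3%, all genes 26.9%) and lower in 15 (35.7%, all genes 29.8%). *Cth* was lower (-2.37 ± 0.29), and *Sfxn3*, a sideroflexin of the mitochondrial membrane, was higher (1.75 ± 0.21). *Mthfd2l*, the paralogue of *Mthfd2*, was at 21.0 CPM in CAF-like cells (81 UMIs, exact Poisson 95% interval 16.6 to 26.0) and at 0.152 CPM in melanoma-like cells (0.108 to 0.207). *Gldc*, the decarboxylase of glycine cleavage, was at 5.69 CPM in CAF-like cells (22 UMIs, 3.57 to 8.62), against 1 UMI in all melanoma-like cells. TAM-like cells were higher in 7 of 41 (17.1%, all genes 15.4%) and lower in 17 (41.5%, all genes 27.1%). *Folr2*, the folate receptor beta of macrophages, was at 422 CPM in TAM-like cells (293 UMIs, 375 to 473) and at 0.124 CPM in melanoma-like cells (0.0851 to 0.176). These intervals cover counting error only.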

How the data were processed

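Large B16F10 tumours of 4 Atf4wt/wt and 4 Atf4D/D hosts were measured by droplet single-cell RNA-seq, 1 library per tumour. The authors deposited each tumour's table of raw UMI counts (genes by barcodes) and per the labels these were made with Cell Ranger 3.1.0 on GRCm38, with Seurat 3.2.1 used downstream. Labels and methods differ on the kit version and the age of the mice, and the labels' age is given here. Libraries were sequenced on a mix of instruments, and which library ran on which was not given in the sources used here.

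The counts were filtered as in the methods (200 to 5000 genes, at most 7.5% mitochondrial UMIs, genes in at least 3 cells) and clustered in Seurat 5.3.0 at resolution 0.6, which gave 15 clusters where the methods have 16. Classes were named from marker lists, with naming limits set after the data were seen. A cluster of 241 cells was removed for its mitochondrial share (median 7.05%), and no doublets were removed. Of these cells, 230 came from Atf4wt/wt replicate 4 and at most 4 from any other tumour. That tumour also held the highest *Phgdh*, *Psph* and *Psat1* levels in melanoma-like cells. Sums per tumour and class (at least 10 cells) were tested with edgeR 4.0.16 (quasi-likelihood, TMM, filterByExpr, two-sided, Benjamini-Hochberg adjusted p under 0.05 over all genes tested), with the tumour as a block where both sides came from the same tumours. DESeq2 1.42.0 was an alternative. In simulated data, the scripts recovered known changes of well-counted genes for some of the comparisons. Whether a change in a member with few counts would be found was not simulated. p-values measure the spread between tumours. Melanoma RNA in a class is its melanoma-marker share over that of the melanoma-like cells of the same tumour.

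The members, the pathway lists and the tests were chosen with earlier results of these data known. Beside the members, the text names up to 3 genes in each direction per pathway list and comparison, by size of change among those called, and the 3 genes most like each member. 1 gene that this rule names is not reported here.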

Additional observations from a re-analysis of the deposited data

Results flagged for a closer look

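Among 100 groups of tumours tested for 1 sample far from the rest, 7 had one, where chance gives about 1 in 20. In CAF-like cells of Atf4D/D hosts, replicate 3 held *Phgdh* at 0 CPM, against 71.8 to 86.1 CPM in the other tumours, and *Mthfd1* at 49.0 CPM against 12.5 to 18.0 CPM. That tumour gave 10 CAF-like cells and 40821 UMIs. In Atf4wt/wt hosts, replicate 4 held *Shmt2* at 94.6 CPM in CAF-like cells against 47.3 to 50 CPM in the others.

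Along the lists in melanoma-like cells, Atf4D/D replicate 2 stood apart from the other Atf4D/D tumours for 4 members. Its log2 ratio of high over low cells was 2.51 for *Aldh1l2* along stress (others 3.87 to 4.06), -0.61 for *Psat1* along hypoxia (others 0.05 to 0.11), -1.47 for *Shmt1* along hypoxia (others -1.76 to -1.72) and 0.24 for *Phgdh* along S phase (others -0.18 to -0.11). Without this tumour, *Psat1* passed along hypoxia (0.13 ± 0.05) and *Phgdh* along S phase (-0.11 ± 0.03).

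The genotype difference of *Atf4*, the deleted gene, was tested as different between CAF-like and melanoma-like cells, by -1.29 on the log2 scale.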

How the results depend on the processing

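No member passed between the genotypes under any alternative run. The counts of all genes called did move. In melanoma-like cells 4 genes became 7 with every gene of at least 1 count, 119 with DESeq2, and 0 with the replicate block, with sex as a covariate or with all barcodes summed, and 0 to 20 with 1 tumour left out. In CAF-like cells 2 became 102 with every gene of at least 1 count, 4 with DESeq2 and at a 5% mitochondrial limit, 5 without cells rich in melanoma RNA, and 0 with the replicate block or sex, and 0 to 2 with 1 tumour left out. In TAM-like cells 1 became 15 with every gene of at least 1 count, and 0 at the 5% limit or without cells rich in melanoma RNA, and 0 to 3 with 1 tumour left out. For the difference between classes 60 became 2 with DESeq2, 133 without cells rich in melanoma RNA, 0 without the tumour block, and 25 to 98 with 1 tumour left out. Tumours of the same number gave correlations of -0.07, -0.39, -0.23 and -0.30, and those of unlike numbers -0.31 to 0.35. The levels were centred within each genotype, which ties these values to each other, so they cannot decide whether the numbers form pairs. No pairing is stated, and none was used in the main tests.

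Along hypoxia, *Psph* turned to -0.20 and -0.10 in the 50% of cells lowest in the S phase and stress lists, *Cth* (0.80) to -0.015 in the latter, and *Sdsl* (0.23) to -0.0052 at the 5% limit, -0.036 in thinned cells and -0.073 in cells low in S phase. Along S phase among cells low in stress, *Phgdh* turned to 0.42, *Mthfd2* to 0.31 and *Cth* (-1.28) to 0.26. Over all melanoma-like cells, *Phgdh* passed as lower along S phase with DESeq2 size factors, with 33.3% of cells a side, with thinned cells and without Atf4wt/wt replicate 3, at -0.08 to -0.09. The causes were not tested. Members past the threshold numbered 8 to 9 along hypoxia and 7 to 9 along S phase with 1 tumour left out. Atf4wt/wt replicate 2, with 2 TAM-like cells, could not be left out there.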

Other observations

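T/NK-like cells were few, 82 cells with a median of 746 UMIs, and were set in no comparison. They held 21 UMIs of *Phgdh*, where melanoma RNA would bring 4.27. Of these, 19 came from Atf4wt/wt hosts, which also held 62609 of the 88752 UMIs of the class. *Mthfd2* was counted 11 times against 2.72 and *Psph* 9 times against 1.76. The 36 endothelial-like cells held 0 to 4 UMIs of each member.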
